A study of Arabidopsis thaliana with 4 samples.

Results

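TPS-CIN (AT3G25830) encodes a terpene synthase that forms 1,8-cineole, and its transcript was measured in roots of Arabidopsis thaliana supplied with or deprived of potassium. The gene was 1 of 13286 with a probe set that lists a single gene. It was followed through probe set 257638_at, which the platform annotation pairs with AT3G25830 alone and which is called the single-copy probe set below. It was selected on its signal difference between starved and control roots on these same 4 arrays, so its levels and differences are given as a description, with no test.

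All plants were Col-0 wild type, 4 to 5 weeks old, in hydroponic culture under 16 h of light per day. They were moved to a potassium-free solution or to fresh control solution, and roots were taken 96 h or 48 h later. The control solution held 0.5 mM KH2PO4 and 1.25 mM KNO3, which 0.5 mM H3PO4 and 1.25 mM HNO3 replaced in the potassium-free solution, so acid supply differed along with potassium. The 4 groups were starved 96 h, control 96 h, starved 48 h and control 48 h roots, with 1 Affymetrix ATH1 array each and hence no replicate check. The labels call the material a mix of roots and do not say how many plants were pooled.

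Terpene synthases turn prenyl diphosphates into the hydrocarbons and alcohols that make up plant terpenes. Cineole synthase belongs to the monoterpene branch, whose substrate, geranyl diphosphate, is made from products of the plastid methylerythritol phosphate (MEP) pathway, while the mevalonate pathway supplies sesquiterpenes and sterols. In Arabidopsis the cineole synthase is known as a root enzyme, and 1,8-cineole is the main monoterpene released by the roots. A near-identical copy of the gene, AT3G25820, is the next protein-coding gene on the chromosome. Both carry the symbol TPS-CIN in the RefSeq table of assembly TAIR10.1.

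The arrays were alike in overall level, with median signals of 46.8 to 47.9. Control spots for 25S ribosomal RNA read 795.5 on the starved 48 h array and 58.7 to 73.1 on the others, so that array stands apart there. Root hair markers were measured in part: 5 of 9 had a named probe set, and no value was at 0. Their summed signal was 1983 in starved and 1372 in control roots at 96 h, and 2536 in starved and 2049 in control roots at 48 h. The wall genes EXPA18, EXPA7 and XTH26 and the peroxidase gene AT1G30870 stood 0.32 to 0.63 above control at 96 h and 0.29 to 0.60 above it at 48 h on the log2(signal + 16) scale. XTH26 was dim at 96 h, at 24.3 in starved and 14.2 in control roots, under the 40th percentiles of those arrays, 30.4 and 29.4. The other measured marker, the peroxidase gene AT4G26010, which carried most of the sum, stood 0.47 above control at 96 h and 0.15 above it at 48 h. The sum was higher in starved roots, as TPS-CIN was, but lower at the later harvest, where TPS-CIN was higher. None of the 13 endodermis and stele markers had a named probe set. Of 20 green tissue markers only RCA, rubisco activase, had one, with signals of 180.2 in starved and 237.0 in control roots at 96 h, and 127.8 in starved and 133.6 in control roots at 48 h. RCA was higher at 96 h in both solutions, as TPS-CIN was, but not higher in starved roots. At 96 h against 48 h, RCA stood 0.45 higher in starved and 0.76 higher in control roots on the same log2 scale. The 5 root hair markers were all lower at 96 h, with differences from -1.21 to -0.21 in starved and from -1.33 to -0.51 in control roots. Over all tested probe sets the SD of this difference was 0.417 in starved and 0.372 in control roots. The part of cell composition in the TPS-CIN values was not tested, and in whole roots more cells of a type and more RNA per cell cannot be told apart.

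TPS-CIN was higher in starved than in control roots whichever the time, and higher at the later harvest whichever the solution. Its signal from MAS5, Affymetrix's summary of the matched and mismatched probes of a probe set, was 161.9 in starved and 91.8 in control roots at 96 h. At 48 h it was 58.3 in starved and 25.4 in control roots. The order from high to low was starved 96 h, control 96 h, starved 48 h and control 48 h. Roots kept on potassium for 96 h thus had more TPS-CIN signal than roots starved for 48 h. The order was the same with every pseudocount and normalization tried. Each level is a single array, so whether neighbours in this order differ beyond their spread cannot be given.

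The lowest of these levels was a dim one. In control roots at 48 h, 37.1% of probe sets on the array were below TPS-CIN, and its signal lay under the 40th percentile of that array, 29.6. The share below was 55.5% on the starved 48 h array, 66.9% on the control 96 h array and 81.0% on the starved 96 h array. TPS-CIN thus stood in the lower part of the array's range in control roots at 48 h and well into the upper part in starved roots at 96 h. Folds against the control 48 h array therefore depend on the pseudocount, the constant of 16 that was added to every signal before taking log2.

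**Figure D1:**
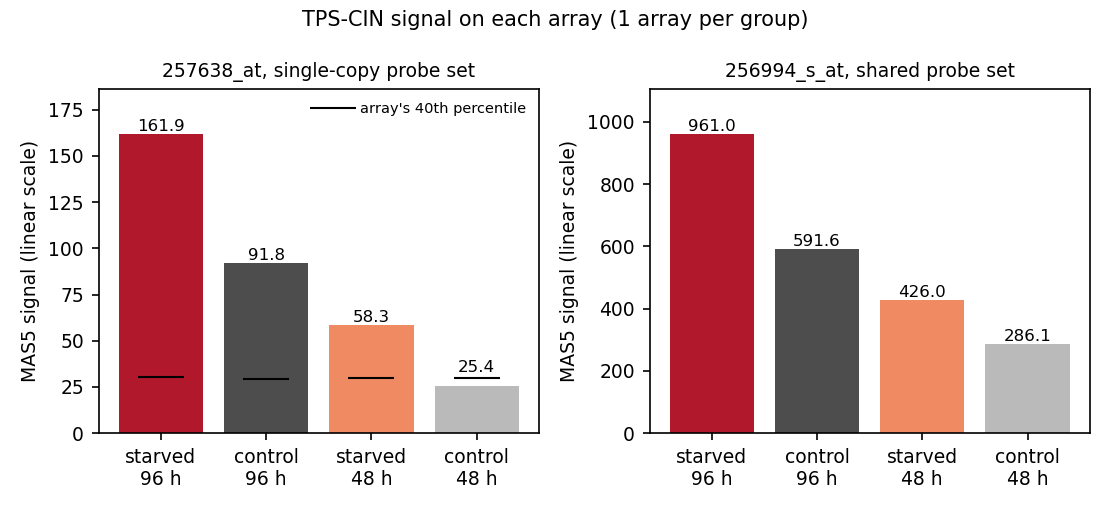
MAS5 signal (linear scale, from 0) of both TPS-CIN probe sets on each array, with starved and control roots at 96 h and at 48 h, and 1 array per bar with no error bar. Short black lines on the left mark the array's 40th percentile: the control 48 h bar (25.4) is the only one below it, and both probe sets give the same order of the 4 groups.

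A second probe set is listed for the same genes. The annotation pairs 256994_s_at, called the shared probe set here, with AT3G25830 and AT3G25820 together, and with no other gene. It came to notice after its values were seen, and it shares the RNA and arrays of the single-copy probe set, so it is a second reading of the same 4 samples and not a replicate. Its signal was 961 in starved and 592 in control roots at 96 h, and 426 in starved and 286 in control roots at 48 h. The order of the 4 groups was that of the single-copy probe set, and every value lay well above the 40th percentile of its array, with 89.9% to 97.9% of probe sets below it. No probe set listed AT3G25820 alone, so the copies could not be told apart, and whether the single-copy probe set also binds transcripts of the other copy was not tested.

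The starvation difference was first taken at 96 h, which does not involve the starved 48 h array. There the single-copy probe set was 0.72 higher in starved roots on the log2(signal + 16) scale, a 1.65-fold difference, and the shared probe set was 0.69 higher, or 1.61-fold. At 48 h the same differences were 0.84 (1.79-fold) for the single-copy probe set and 0.55 (1.46-fold) for the shared probe set. The ratio of the plain signals was 1.76 at 96 h and 2.29 at 48 h for the single-copy probe set, and 1.62 at 96 h and 1.49 at 48 h for the shared probe set. On both of these scales the single-copy probe set had its wider difference at 48 h and the shared one at 96 h. In units of signal the gap between starved and control roots was wider at 96 h for both, at 70.1 against 32.9 for the single-copy probe set and 369 against 140 for the shared probe set. Which time had the wider starvation difference therefore depended on the probe set and the scale.

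For scale, these differences were set beside those of all 13998 probe sets that passed a filter on low values, which asked for the 40th percentile of the array on 2 or more arrays. The SD of the starvation difference over these was 0.295 at 96 h and 0.237 at 48 h, with medians of -0.0003 at 96 h and -0.01 at 48 h. At 96 h, 183 of the 13998 probe sets, itself included, reached the difference of the single-copy probe set, and 215 that of the shared probe set. At 48 h, 19 reached that of the single-copy probe set and 202 that of the shared one. At least 1.5-fold higher in starved roots were 2.46% of tested probe sets at 96 h and 1.1% at 48 h. TPS-CIN passed that fold at both times by the single-copy probe set, and at 96 h but not at 48 h by the shared probe set. With a pseudocount of 64 the single-copy probe set passed it at neither time, at 1.45-fold at 96 h and 1.37-fold at 48 h.

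**Figure D2:**
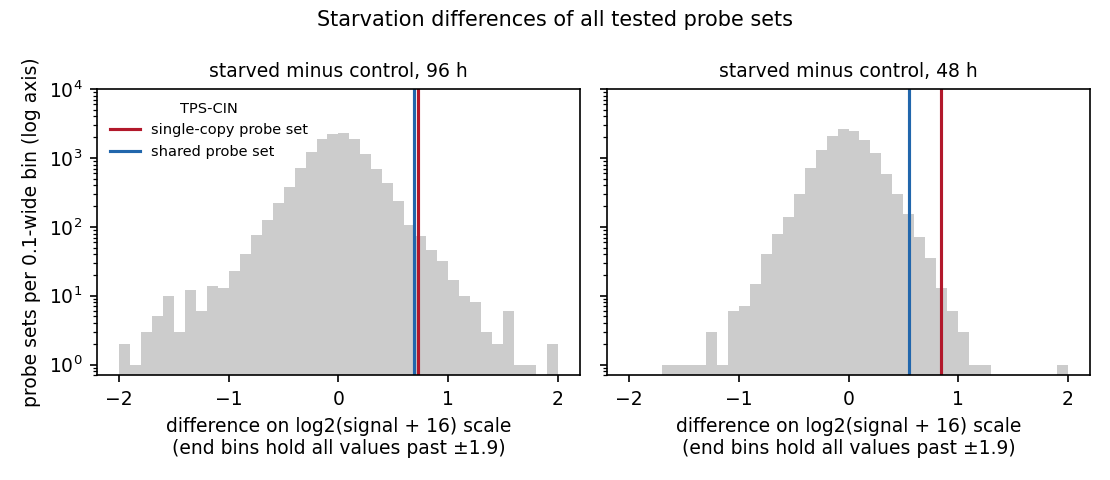
Starved minus control differences on the log2(signal + 16) scale for the 13998 tested probe sets at 96 h (left) and 48 h (right), as counts per bin on a log axis, with vertical lines for the TPS-CIN probe sets. The lines nearly coincide at 96 h (0.72 for the single-copy and 0.69 for the shared probe set) and stand apart at 48 h (0.84 and 0.55).

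For TPS-CIN the difference between the harvests was larger than that between the solutions, in both probe sets. In starved roots TPS-CIN was 1.26 higher at 96 h than at 48 h on the log2(signal + 16) scale by the single-copy probe set, and 1.14 higher by the shared probe set. In control roots, which had potassium throughout, it was 1.38 higher by the single-copy probe set and 1.01 higher by the shared probe set. As folds these were 2.39 in starved and 2.6 in control roots for the single-copy probe set, and 2.21 in starved and 2.01 in control roots for the shared probe set. Averaged over the solutions, the fold was 2.5 for the single-copy probe set and 2.11 for the shared probe set. Averaged over the times, the starvation fold was 1.72 for the single-copy probe set and 1.53 for the shared probe set. Itself included, 72 of 13998 probe sets in control roots and 137 in starved roots had a harvest difference as high as that of the single-copy probe set, and 165 in either solution as high as that of the shared probe set. Harvest time, time since transfer and plant age cannot be told apart in this design.

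**Figure D3:**
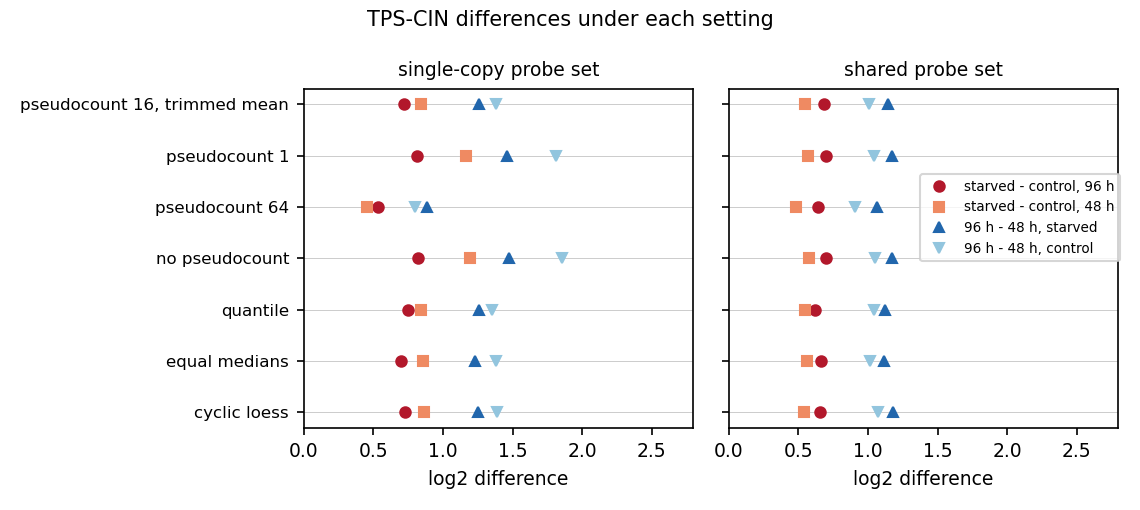
Log2 differences of TPS-CIN (horizontal axis) by the single-copy probe set (left) and the shared probe set (right) under 7 ways of scaling the signals, for starved minus control at each time and 96 h minus 48 h in each solution. All values are above 0. Those of the shared probe set hardly move, while the differences of the single-copy probe set against the control 48 h array spread from 0.45 to 1.2 for starvation and from 0.80 to 1.85 for harvest.

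Other terpene synthase genes were measured in part. Of 31 further loci in a family list, 17 had a probe set that lists that gene alone, and 8 passed the filter. The 31 include the copy AT3G25820, which was read only in the shared probe set and is not among the 17. At 96 h, 7 of these 8 were lower in starved roots, with differences from -0.74 to 0.10 and a median of -0.35, against a median of -0.0003 over all tested probe sets. Of all tested probe sets, 49.9% were higher in starved roots at 96 h. The 8 differences come from the same pair of arrays, so they are not independent readings. Over all 17 measured relatives, dim ones included, 9 were lower at 96 h and the median was -0.14. At 48 h the 8 lay between -0.35 and 0.11, with a median of -0.07. These genes were tested with limma, a linear model of all tested probe sets with solution and time as terms, whose p-values rest on 1 residual degree of freedom and a spread shared across probe sets. No member of the 8 was called for starvation (2 at an unadjusted p below 0.05, smallest adjusted p = 0.437), where 0.121% of tested probe sets were called higher and 0.0714% lower. None was called for harvest either (2 at an unadjusted p below 0.05, smallest adjusted p = 0.0607), where 4.11% were called higher and 3.24% lower. Of all 13998 tested probe sets, 1035 stood at an unadjusted p below 0.05 for starvation and 2935 for harvest. At least 1.5-fold higher at 96 h than at 48 h were 5.33% of tested probe sets in starved and 4.49% in control roots, and 0 of the 8 in either. At least 1.5-fold lower were 4.96% in starved and 3.41% in control roots, against 2 of the 8 in starved and 0 in control roots. The test of a difference between TPS-CIN and these genes was not run, since TPS-CIN was picked for its own.

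AT3G29410 measured 395 in starved and 526 in control roots at 96 h, and 465 in starved and 469 in control roots at 48 h, so only at 96 h was the starved value lower by more than a few units. AT3G29110 measured 42.0 in starved and 80.6 in control roots at 96 h, and 83.4 in starved and 92.5 in control roots at 48 h. It was the only one of the 8 past 1.5-fold between the solutions, on the lower side and at 96 h, where 2.64% of tested probe sets were (1.23% at 48 h). AT5G48110 measured 78.0 in starved and 118.6 in control roots at 96 h, and 126.5 in starved and 158.4 in control roots at 48 h. Its 4 groups ran opposite to TPS-CIN, with the lowest level in starved roots at 96 h and the highest in control roots at 48 h.

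The other 5 relatives that passed were AT1G31950, AT1G33750, AT1G66020, AT3G32030 and AT4G20230. Their starvation differences lay between -0.35 and 0.10 at 96 h and between -0.35 and 0.11 at 48 h, within 1.5-fold throughout. The 9 that did not pass were dim on all arrays, with signals of 0.174 to 27.1. Among them was AT3G25810, a neighbour of the cineole synthase pair, with 27.1 in starved and 12.0 in control roots at 96 h, and 11.3 in starved and 9.69 in control roots at 48 h. It was highest on the same array as TPS-CIN, yet no value reached the 40th percentile of its array. AT3G29190 measured 12.8 in starved and 2.92 in control roots at 96 h, and 15.9 in starved and 2.92 in control roots at 48 h, again all in the dim range. The remaining 7 were AT1G48820, AT1G70080, AT2G23230, AT3G14490, AT3G14520, AT4G20200 and AT5G44630, with differences from -0.63 to 0.32 at 96 h and from -0.60 to 0.69 at 48 h.

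**Figure D4:**
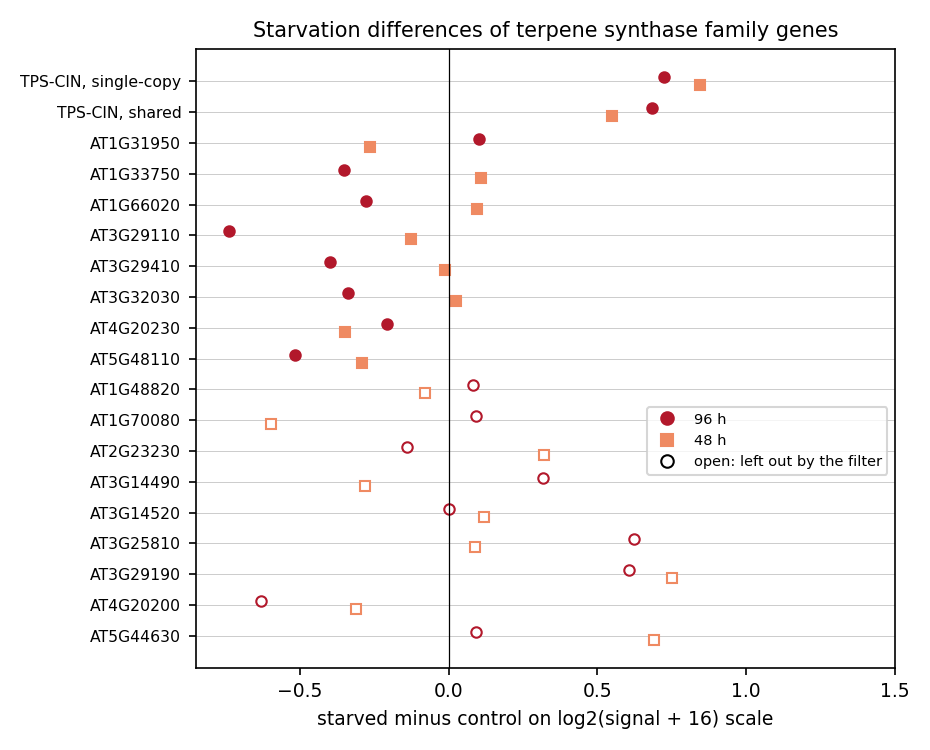
Starved minus control differences (horizontal axis, log2(signal + 16) scale) at 96 h (circles) and 48 h (squares) for both TPS-CIN probe sets and 17 other terpene synthase loci, 1 array per group. Filled symbols passed the filter on low values: among these the TPS-CIN probe sets lie at 0.55 to 0.84 and the 8 other loci between -0.74 and 0.11.

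Genes that supply terpene precursors were thinly covered by named probe sets. None of 11 MEP pathway loci had one, so the supply line of monoterpenes is not described here by name. Of 9 mevalonate pathway loci, 2 were measured and both passed the filter. AT1G31910 measured 448 in starved and 529 in control roots at 96 h, and 493 in starved and 558 in control roots at 48 h. Starved roots were the lower ones at each time, by 1.17-fold at 96 h and 1.13-fold at 48 h. AT3G54250 was 0.40 higher in starved roots at 96 h and stood at -0.35 at 48 h.

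Of 15 prenyl diphosphate synthase loci, whose products are the substrates of terpene synthases, 5 were measured and 2 passed. AT3G29430 stood at -0.64 at 96 h and -0.26 at 48 h. AT3G32040 stood at -0.37 at 96 h and 0.58 at 48 h. It passed the filter only through control roots at 96 h and starved roots at 48 h, and was dim on the other arrays. None of the 4 precursor genes that passed was called by limma for starvation, where 0.121% of tested probe sets were called higher and 0.0714% lower. At an unadjusted p below 0.05 stood 1 of the 4, beside 1035 of all 13998 tested probe sets. None was called for harvest (0 at an unadjusted p below 0.05), where the shares were 4.11% higher and 3.24% lower, so a count of 0 of 4 says little about these genes. The 3 that did not pass, AT2G18620, AT3G14510 and AT3G20160, had signals of at most 11.1.

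Of enzymes of later or parallel terpene steps, only LUP5 and CYP71B31 had a named probe set, and both were dim. The oxidosqualene cyclase gene LUP5 was the only measured one of 13 triterpene and sterol cyclases, with 9.16 in starved and 4.35 in control roots at 96 h, and 16.7 in starved and 8.60 in control roots at 48 h. The cytochrome P450 gene CYP71B31, the only measured one of 12 in its list, did not exceed 0.97 on any array. Of 23 genes of jasmonate synthesis and response, MYC3 and MYC4 were measured, transcription factors of jasmonate signalling. MYC3 stood at -0.26 at 96 h and 0.21 at 48 h in starved against control roots, and MYC4 at -0.17 and 0.07. Neither was called by limma (0 at an unadjusted p below 0.05 in both comparisons), beside 0.121% of tested probe sets called higher and 0.0714% lower for starvation, and 4.11% higher and 3.24% lower for harvest.

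Next to TPS-CIN on its chromosome, most genes were dim or had no named probe set. Of the 10 protein-coding genes on each side, 12 had a probe set that lists that gene alone and 4 passed the filter. HMT-1, a homocysteine S-methyltransferase gene, measured 221.8 in starved and 219.5 in control roots at 96 h, and 117.6 in starved and 117.3 in control roots at 48 h. It was higher at 96 h than at 48 h, by 1.78-fold in starved and 1.77-fold in control roots, while its starved and control values were level at both times. The next gene, AT3G25840, stood at -0.07 at 96 h and -0.20 at 48 h for starvation. AT3G25805 stood at 0.24 at 96 h and 0.34 at 48 h, and AT3G25790 at 0.40 and 0.08. None of the 4 was called for starvation by limma (0 at an unadjusted p below 0.05), where 0.121% of tested probe sets were called higher and 0.0714% lower. HMT-1 was the only one called for harvest, where 4.11% were called higher and 3.24% lower. A count of 0 or 1 in 4 is too small to be read against these shares. The 8 dim neighbours were AT3G25810, MAP1B, AT3G25750, AT3G25850, AT3G25855, AT3G25870, AT3G25880 and CLE27, with signals of at most 27.1. Starved exceeded control roots by 1.54-fold for AT3G25810 at 96 h. At 48 h the fold was 1.71 for AT3G25850, 1.69 for AT3G25870 and 1.68 for CLE27. All of these values lay under the 40th percentile of their array.

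The genes with the profile most like TPS-CIN were found by the distance between log2(signal + 16) values over the 4 arrays, each gene centred on its own mean. The median distance over 13997 probe sets was 1.57. Only 29 lay within 0.5, and the shared probe set was the 6th nearest of all, at 0.321. Of the 5 nearer ones, AT3G03020 (0.226) and AT4G18280 (0.301) have a single listed gene. AT3G03020 measured 131 in starved and 76.3 in control roots at 96 h, and 45.1 in starved and 25.3 in control roots at 48 h, in the same order of groups as TPS-CIN. AT4G18280 measured 210 in starved and 122 in control roots at 96 h, and 65.9 in starved and 45.3 in control roots at 48 h.

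The next named genes were AT5G26200 (0.355), AILP1 (0.412), AT5G12110 (0.433), PDC2 (0.44), AT1G13340 (0.441) and AT1G16850 (0.464). PDC2, a pyruvate decarboxylase gene of ethanol fermentation, measured 1688 in starved and 1331 in control roots at 96 h, and 667 in starved and 519 in control roots at 48 h. Its harvest folds of 2.49 in starved and 2.52 in control roots were near those of TPS-CIN, and its starvation folds of 1.26 at 96 h and 1.28 at 48 h were smaller. AT5G26200 measured 212 in starved and 111 in control roots at 96 h, and 52.2 in starved and 30.0 in control roots at 48 h. AILP1 measured 880 in starved and 564 in control roots at 96 h, and 289 in starved and 236 in control roots at 48 h. AT5G12110 stood at 0.43 at 96 h and 0.64 at 48 h for starvation and AT1G13340 at 0.30 and 0.45, so both had the wider difference at 48 h, as TPS-CIN had by the single-copy probe set. AT1G16850 measured 92.5 in starved and 43.0 in control roots at 96 h, and was dim at 48 h, at 13.4 in starved and 6.39 in control roots. These genes were picked for their likeness over 4 arrays, so it carries no test.

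**Figure D5:**
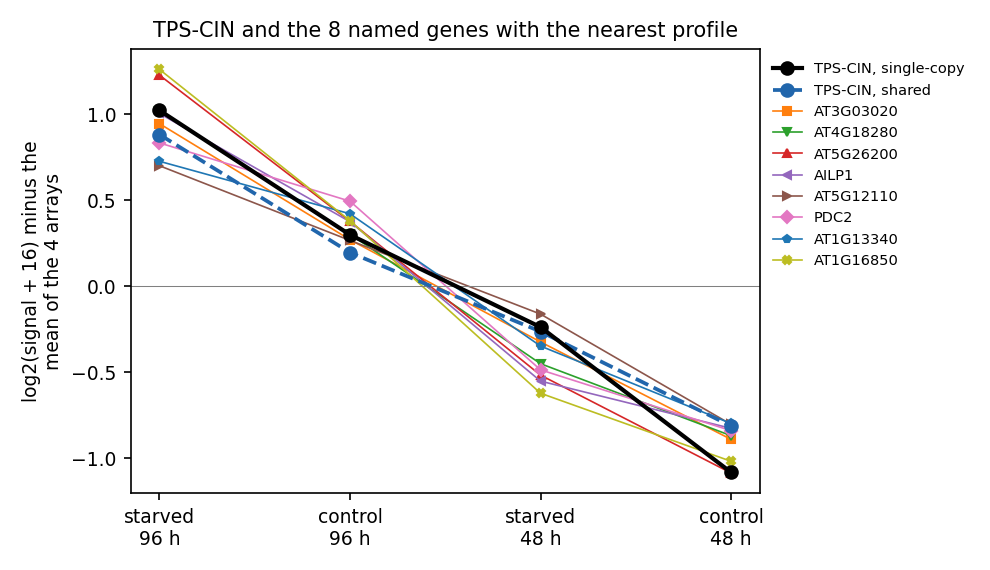
Log2(signal + 16) minus each gene's mean of the 4 arrays (vertical axis) in starved and control roots at 96 h and at 48 h, for both TPS-CIN probe sets (thick lines) and the 8 named genes with the nearest profile. Lines only join the values of a gene: every gene is highest in starved roots at 96 h and lowest in control roots at 48 h, and TPS-CIN by the single-copy probe set reaches among the lowest values on the control 48 h array.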

How the data were processed

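Root RNA of 4 samples was measured on 1-colour Affymetrix ATH1 arrays. The authors deposited linear signal intensities from MAS5, per the submitters' processing notes, with version and settings not given in the sources used here. All arrays share a 2% trimmed mean of 100.01, so the authors had put them on a common level. Each array was rescaled to 100, and log2(signal + 16) was used, which understates changes of dim probe sets. The 64 control probe sets were set aside. Tested were probe sets that 2 or more arrays placed at or above the array's 40th percentile, which kept 13998 of 22746.

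Samples were grouped by title, 1 array a group. The number of arrays limits the precision. Differences of TPS-CIN are values without a test. For the gene lists, limma 3.58.1 in R 4.3.3 was fitted with solution and time as terms (lmFit, eBayes with trend, Benjamini-Hochberg over all tested probe sets, threshold 0.05). It had 1 residual degree of freedom, how far the starvation effect differed between 48 h and 96 h, so its p-values measure no spread between like samples. The fit was also run on simulated data, with independent noise drawn from its own fitted spread. That run cannot show whether its p-values hold for arrays without replicates. Names came from the platform annotation through Entrez identifiers to RefSeq's table of TAIR10.1, which matched 13436 of 13513 probe sets with 1 gene. A further 503 probe sets listed several genes and 8730 listed none. A gene without a named probe set is therefore not shown to be absent from the array. A gene with several probe sets was read from the brightest. No sequence or coordinate is given.

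The gene, the 10 lists (written from general knowledge) and the tests were chosen with earlier results of these data known. The text names every measured terpene synthase and chromosomal neighbour, and the 8 single-gene probe sets nearest in profile. Of each other list, up to 4 members by mean absolute starvation difference were planned, and all measured members are named. Alternatives were other pseudocounts, normalizations and filters.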

Additional observations from a re-analysis of the deposited data

Results flagged for a closer look

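Control spots for 25S ribosomal RNA read 795.5 in starved and 58.7 in control roots at 48 h, and 60.8 in starved and 73.1 in control roots at 96 h. They lie outside the main measurement and are given because the starved 48 h array enters the starvation difference at 48 h and the harvest difference in starved roots. The starvation difference of TPS-CIN at 96 h and its harvest difference in control roots do not use that array.

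The starvation differences of 2 precursor genes had opposite directions at the times, by at least 1.25-fold each. AT3G54250 stood at 0.40 at 96 h and -0.35 at 48 h. AT3G32040 stood at -0.37 at 96 h and 0.58 at 48 h. Its signal was 28.4 in starved and 41.55 in control roots at 96 h, and 51.3 in starved and 29.15 in control roots at 48 h. The lower value of each pair lay under the 40th percentile of its array, so each difference sets a dim value against a brighter one. The difference between the times was not tested, because each group held 1 array.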

How the results depend on the processing

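TPS-CIN kept its direction under every setting run. By the single-copy probe set, the starvation difference at 48 h was 1.17 with a pseudocount of 1, 0.45 with a pseudocount of 64 and 1.2 as a plain signal ratio, which was added after the data were seen, against 0.84. With a pseudocount of 64 its wider starvation difference was at 96 h (0.54), as in the shared probe set, and it passed 1.5-fold at neither time. The harvest difference in control roots was 1.81, 0.80 and 1.85 under the same settings, against 1.38. Its other differences, and all 4 of the shared probe set (also added), moved by less than the SD over tested probe sets. The median starvation difference of the other terpene synthases at 96 h was -0.35, and -0.14 without the filter. limma's calls for starvation numbered 27. Their number was 12 under quantile scaling and 5 under a pseudocount of 1. It was 4 each under cyclic loess, equal medians and a stricter filter (60th percentile), and 0 when nothing was filtered out (1346 at an unadjusted p below 0.05). Harvest calls numbered 1029, with 615 under the stricter filter and 103 under none. Of the 8 genes nearest in profile, 5 stayed among the nearest 8 with a pseudocount of 1. No paired analysis was possible because each group has 1 array, and no array could be left out within a group.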
